A study of Mus musculus with 10 samples.

Results

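The genes described here are 36 mouse genes of glucose and lactate transport, glycolysis, pyruvate handling and the hypoxia response, chosen by symbol and not by their measured values. They occupied 37 of the 55385 rows of the deposited count table, because the symbol Aldoa belongs to a pair of gene identifiers. All 37 passed the filter on low counts, although 4 of them averaged under 1 CPM, a read count scaled to a common library size. RNA was sequenced from sorted lung endothelial cells of mice of the strain Cdh5.iCreERT2xTnfsf10Lox/Lox. The libraries labelled EC-TRAIL KO (n = 5) were Tnfsf10 L/L and carried Cdh5.Cre as Tg/W. They combined loxP sites around Tnfsf10, which encodes the death ligand TRAIL, with a tamoxifen-inducible Cre recombinase under the endothelial Cdh5 promoter. The Control libraries (n = 5) were also Tnfsf10 L/L but Cdh5.Cre W/W, with the same floxed alleles and no Cre transgene. Per the labels' protocols, mice were 8 to 14 weeks old and tamoxifen was injected at 1 mg per day for 5 or 10 days. The same protocol text stands with both groups, and the duration is not given for each library. The Cre transgene and the deletion cannot be told apart in this design. The design text of the series counts 4 animals with the transgene, where the labels and the table hold 5 such libraries, so whether every library stands for its own animal is open to doubt. The n of 5 counts libraries, and the tests rest on the spread between them, which may be partly technical.

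Glycolysis splits glucose into pyruvate in the cytosol, with hexokinase and phosphofructokinase as its controlled steps, and lactate dehydrogenase turns pyruvate into lactate. Endothelial cells are known to make much of their ATP by glycolysis although they lie next to oxygenated blood. In the hypoxia response, prolyl hydroxylases mark the HIF alpha subunits for destruction by the VHL ubiquitin ligase while oxygen is present. When oxygen is low, the alpha subunits pair with ARNT and raise transcription of glycolytic genes among others. HIF-2α, encoded by Epas1, was first described as an endothelial protein and is abundant in lung vessels.

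Totals ran from 29806083 to 34702571 expected counts in libraries labelled EC-TRAIL KO and from 34435835 to 56897822 in Control libraries, and the groups thus differed in depth (exact two-sided permutation test, p = 0.0159, n = 5 each). Tnfsf10, which checks the labels, had 199, 318, 126, 169 and 80.99 CPM in replicates 1 to 5 labelled EC-TRAIL KO, against 374, 369.6, 298, 323 and 305 CPM in Control replicates 1 to 5. Replicate 2 labelled EC-TRAIL KO lay within the Control range, and the other 4 lay below every Control library. With edgeR's quasi-likelihood test, the log2 fold change of Tnfsf10 (EC-TRAIL KO over Control) was -0.90 (SE 0.28, edgeR adjusted p = 0.425). Tnfsf10 itself was therefore not called, although its edgeR unadjusted p was 0.00664. The 10 endothelial markers summed to 10950 to 12750 CPM in libraries labelled EC-TRAIL KO and to 10990 to 12690 CPM in Control libraries. Markers of alveolar epithelium were present too, with sums of 8040 to 11320 CPM in libraries labelled EC-TRAIL KO and 9423 to 14150 CPM in Control libraries, and 0 of those 14 genes were at 0. Of 12 proliferation markers, 10 were called higher in libraries labelled EC-TRAIL KO (summed level 184 to 949 CPM, against 58.5 to 122 CPM in Control libraries). The part of depth, of alveolar RNA and of dividing cells in the values below was not tested, and in these bulk libraries fewer cells of a type and less RNA per cell cannot be told apart.

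The glycolysis and hypoxia response genes showed no difference between the libraries labelled EC-TRAIL KO and Control libraries that exceeded the spread between libraries. With edgeR's quasi-likelihood test, 0 of the 37 genes passed an adjusted p of 0.05, where 0.439% of all 17997 tested genes did. Tnfsf10 did not pass that threshold either (edgeR adjusted p = 0.425). At an unadjusted p under 0.05 there were 0 of 37, against 5.13% of all genes (3.81% higher and 1.32% lower). The groups were free of overlap for 0 of 37, against 1.64% of all genes (1.38% with every EC-TRAIL KO library above and 0.261% with every one below). DESeq2 and limma-voom also called 0, with 0 and 1 (Aldoc) at an unadjusted p under 0.05. An edgeR fit with a block for the replicate number called 0, with 2 (Bnip3 and Ndrg1) at an unadjusted p under 0.05. The log2 fold change, EC-TRAIL KO over Control throughout, was above 0 for 18 genes and below 0 for 19. Its median was -0.010, against -0.0085 over all tested genes. The lowest edgeR adjusted p among the 37 was 0.997. Without EC-TRAIL KO replicate 2, the library with Tnfsf10 in the Control range, 0 of 37 were called as well, 0 had an unadjusted p under 0.05 and 19 lay above 0. Leaving out another library gave 0 called each time, while 1 gene had an unadjusted p under 0.05 in 6 of those fits. It was Pdk2 without EC-TRAIL KO replicate 1, Hk1 without EC-TRAIL KO replicate 3, Aldoc without EC-TRAIL KO replicate 4 or 5 or Control replicate 5, and Ndrg1 without Control replicate 4 (lowest edgeR unadjusted p = 0.0119, with an edgeR adjusted p of 0.548). The background count itself lay close to the threshold, since 77 of the 79 genes called over the whole table had an edgeR adjusted p of 0.04 to 0.05. It became 154 without EC-TRAIL KO replicate 1. Without EC-TRAIL KO replicate 3 or 4, or without any 1 of the Control libraries, it became 2.

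The precision differed widely among the 37 genes. The standard error of the log2 fold change was under 0.1 for 18 genes, with a range of 0.053 for Arnt to 0.53 for Pdk4. For 14 genes the 95% interval of the log2 fold change lay inside ±0.25, which is a 1.19-fold difference either way. For 27 genes it lay inside ±0.5, a 1.41-fold difference, and for 34 inside ±1, a 2-fold difference. The intervals of Aldoc, Eno2 and Pdk4 reached beyond a 2-fold difference.

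**Figure D1:**
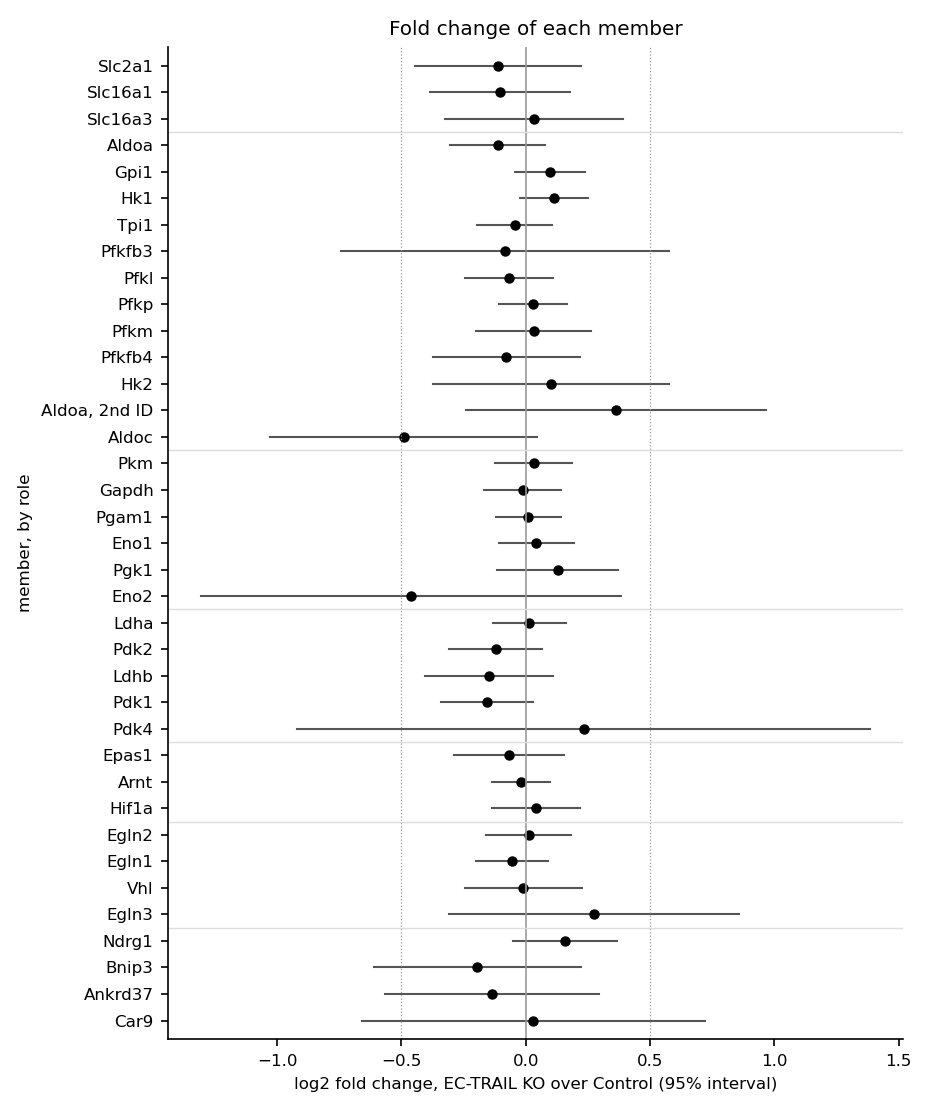
Log2 fold change (EC-TRAIL KO over Control) of each gene, with points for the edgeR estimate and bars for its 95% interval, grouped by role from glucose transport at the top to other HIF targets at the bottom. The dotted lines mark ±0.5; every interval includes 0, and those of Pdk4, Eno2 and Aldoc reach beyond 1 in size.

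Transport of glucose and lactate was represented by 3 genes, 1 above and 2 below a log2 fold change of 0. Slc2a1, the glucose transporter GLUT1 (ENSMUSG00000028645, GRCm38 chr4:119108711-119137983, plus strand), had 15.8, 12.9, 20.1, 19.3 and 16.3 CPM in replicates 1 to 5 labelled EC-TRAIL KO, against 14.1, 20.02, 19.2, 23.1 and 14.9 CPM in Control replicates 1 to 5. The groups overlapped, with the lowest value in EC-TRAIL KO replicate 2 and the highest in Control replicate 4 (log2 fold change -0.11, SE 0.15). Slc16a1, the lactate carrier MCT1, had 10.2, 7.66, 10.05, 11.2 and 10.3 CPM in libraries labelled EC-TRAIL KO, against 9.48, 11.4, 8.93, 10.2 and 13.1 CPM in Control libraries. EC-TRAIL KO replicate 2 was again the lowest, and the groups overlapped (log2 fold change -0.10, SE 0.13). Slc16a3, the lactate exporter MCT4, averaged 3.64 ± 0.643 CPM in libraries labelled EC-TRAIL KO and 3.55 ± 0.557 CPM in Control libraries (SD, n = 5 each). Scaled by exon length, Slc16a1 exceeded Slc16a3 by 2.75 ± 0.23 times in libraries labelled EC-TRAIL KO and by 3.02 ± 0.312 times in Control libraries (SD, n = 5 each).

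The upper part of the pathway, from hexokinase to triose phosphate isomerase, held 12 rows with log2 fold changes of -0.49 to 0.36, with 6 above and 6 below 0. Hk1, the housekeeping hexokinase, had 154, 159, 136, 148 and 155 CPM in libraries labelled EC-TRAIL KO, against 132, 135, 136, 148 and 144 CPM in Control libraries. It stood second among the 37 genes by p (log2 fold change 0.11, SE 0.063, edgeR adjusted p = 0.997), and replicates 3 and 4 of the 2 groups were nearly equal. Hk2, the inducible hexokinase, was the scarcer form in every library. On the length-scaled level (CPM per kilobase of exon), Hk1 exceeded Hk2 by 16.0 ± 5.58 times in libraries labelled EC-TRAIL KO and by 14.7 ± 2.14 times in Control libraries (SD, n = 5 each). This ratio ran from 8.996 to 22.4 times in libraries labelled EC-TRAIL KO, beyond both ends of its Control range of 11.5 to 16.97 times.

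Gpi1, which converts glucose-6-phosphate to fructose-6-phosphate, had 204, 217, 192, 204 and 208 CPM in libraries labelled EC-TRAIL KO, against 198, 185, 188, 209 and 178 CPM in Control libraries. Its highest value was in EC-TRAIL KO replicate 2, and the groups overlapped (log2 fold change 0.10, SE 0.064). The 3 phosphofructokinase genes were all expressed, with a length-scaled level of 15.1 ± 1.36 for Pfkl (liver type), 15.3 ± 1.02 for Pfkp (platelet type) and 7.87 ± 0.882 for Pfkm (muscle type) in libraries labelled EC-TRAIL KO. In Control libraries the length-scaled levels were 15.9 ± 1.39 for Pfkl, 15 ± 0.643 for Pfkp and 7.69 ± 0.999 for Pfkm (SD, n = 5 each). Pfkl and Pfkp were therefore level within their spread, and both exceeded Pfkm by 1.54 times or more in every library. Pfkm shares its locus with Senp1 on the opposite strand, and without the strand setting of the counting its reads cannot be told apart from those of Senp1. Pfkp overlaps Pitrm1 on the opposite strand, with a mean of 2609 counts for Pfkp and 1718 for Pitrm1.

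Pfkfb3 and Pfkfb4 make and break the allosteric activator of phosphofructokinase. Pfkfb3 had 62.96, 73.6, 151, 104.5 and 177 CPM in libraries labelled EC-TRAIL KO, against 78.6, 94.8, 201, 109.6 and 118 CPM in Control libraries. Replicates 1 and 2 were the lowest 2 of each group, and the difference between groups was far smaller than that between replicates (log2 fold change -0.082, SE 0.30). Pfkfb4 averaged 13.9 ± 2.21 CPM in libraries labelled EC-TRAIL KO and 14.6 ± 2.34 CPM in Control libraries (SD, n = 5 each).

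Aldoa, the main aldolase (ENSMUSG00000030695, GRCm38 chr7:126795234-126800751, minus strand), had the highest length-scaled level of all the enzymes. Its values were 264, 195, 241, 265 and 260.1 CPM in libraries labelled EC-TRAIL KO, against 253, 256, 277, 284 and 254 CPM in Control libraries. EC-TRAIL KO replicate 2 lay below every other library, and the groups overlapped (log2 fold change -0.11, SE 0.088). The other identifier of that symbol (ENSMUSG00000114515, chr7:126800790-126809108, minus strand) lies directly next to it. It had 0.759, 1.06, 0.691, 0.451 and 0.697 CPM in libraries labelled EC-TRAIL KO, against 0.552, 0.425, 0.427, 0.824 and 0.621 CPM in Control libraries, with at most 38 counts in any library. EC-TRAIL KO replicate 2 was its highest value, and the split of reads between the 2 identifiers is uncertain. The protein-coding gene Fam57b overlaps it on the opposite strand, with a mean of 824.7 counts against 25.1. Without the strand setting of the counting these values are uncertain for that reason too.

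Aldoc, the aldolase known from brain, had the lowest p of the 37 genes. It had 1.11, 0.863, 0.893, 1.53 and 1.76 CPM in libraries labelled EC-TRAIL KO, against 1.66, 2.24, 1.47, 1.97 and 1.27 CPM in Control libraries. Replicates 1 to 3 labelled EC-TRAIL KO lay below every Control library, whereas replicates 4 and 5 lay among them (log2 fold change -0.49, SE 0.25, edgeR unadjusted p = 0.0697, edgeR adjusted p = 0.997). The length-scaled level of Aldoa exceeded that of Aldoc by 344 ± 81.2 times in libraries labelled EC-TRAIL KO and by 261 ± 56.2 times in Control libraries (SD, n = 5 each). Tpi1, triose phosphate isomerase, averaged 47.4 ± 3.14 CPM in libraries labelled EC-TRAIL KO and 48.9 ± 3.08 CPM in Control libraries (SD, n = 5 each).

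**Figure D2:**
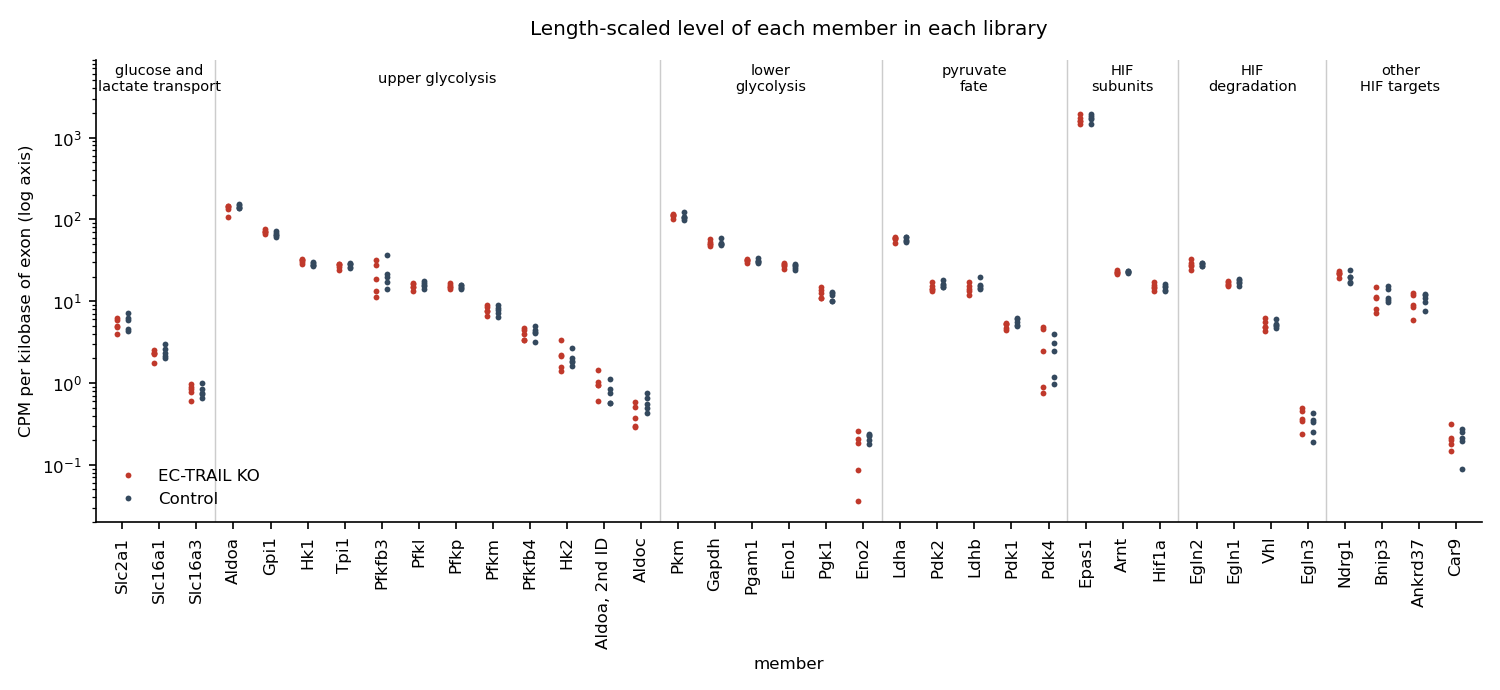
Length-scaled level (CPM per kilobase of exon, log axis) of each gene in each of the 10 libraries, by role and by falling level within a role, with EC-TRAIL KO libraries in red on the left of each pair and Control libraries in dark blue on the right. Epas1 stands above every enzyme, Aldoa and Pkm lead the enzymes, and the groups overlap for every gene.

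The lower part of glycolysis, from glyceraldehyde-3-phosphate dehydrogenase to pyruvate kinase, held 6 genes with a median log2 fold change of 0.02. Pkm, pyruvate kinase, had 283, 294, 263, 301 and 289.8 CPM in libraries labelled EC-TRAIL KO, against 278, 275, 273, 317 and 256 CPM in Control libraries. The groups overlapped, with replicate 4 the highest of each (log2 fold change 0.03, SE 0.071). Gene-level counts do not separate the M1 and M2 isoforms of Pkm, and a predicted gene on the same strand overlaps its locus, so the split of reads between them is uncertain. Gapdh had 71.2, 74.2, 74.2, 84.9 and 78.9 CPM in libraries labelled EC-TRAIL KO, against 76.4, 74.2, 74.9, 87.6 and 73.6 CPM in Control libraries. Replicate 4 was the highest of each group, and the group difference was small (log2 fold change -0.012, SE 0.071). Gapdh overlaps Iffo1 on the opposite strand, with a mean of 3087 counts for Gapdh and 1927 for Iffo1.

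Pgam1, phosphoglycerate mutase, was among the steadiest of the genes, at 55.4 ± 1.99 CPM in libraries labelled EC-TRAIL KO and 54.96 ± 3.17 CPM in Control libraries (SD, n = 5 each). Eno1, the ubiquitous enolase, averaged 69.3 ± 4.4 CPM in libraries labelled EC-TRAIL KO and 67.3 ± 4.89 CPM in Control libraries (SD, n = 5 each), and the near-identical Eno1b held 7.60% as many counts. Pgk1, phosphoglycerate kinase, averaged 22.9 ± 3.07 CPM in libraries labelled EC-TRAIL KO and 21 ± 2.7 CPM in Control libraries (SD, n = 5 each). Eno2, the neuronal enolase, was scarce, with 3 to 37 counts per library. It had 0.584, 0.0995, 0.519, 0.24 and 0.73 CPM in libraries labelled EC-TRAIL KO, against 0.495, 0.629, 0.641, 0.672 and 0.562 CPM in Control libraries. Replicates 2 and 4 labelled EC-TRAIL KO lay below every Control library and replicate 5 above every one (log2 fold change -0.46, SE 0.39).

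The handling of pyruvate was represented by 5 genes, lactate dehydrogenases and the kinases that switch off pyruvate dehydrogenase. Ldha, which favours lactate formation, had 116, 111, 112, 109 and 98.2 CPM in libraries labelled EC-TRAIL KO, against 107, 116, 116, 102 and 100.4 CPM in Control libraries. Replicate 5 was the lowest of each group, and the groups overlapped (log2 fold change 0.01, SE 0.068). Ldhb, whose subunits favour the reverse reaction, averaged 18.8 ± 2.63 CPM in libraries labelled EC-TRAIL KO and 20.8 ± 3.03 CPM in Control libraries (SD, n = 5 each). The length-scaled level of Ldha exceeded that of Ldhb by 4.06 ± 0.636 times in libraries labelled EC-TRAIL KO and by 3.62 ± 0.412 times in Control libraries (SD, n = 5 each), and the lowest ratio in any library was 3.08 times.

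Among the kinases, Pdk2 had 38.8, 29.6, 31.98, 31.3 and 34.1 CPM in libraries labelled EC-TRAIL KO, against 36.8, 40.7, 33.7, 35.2 and 33.8 CPM in Control libraries. Replicates 2 to 4 labelled EC-TRAIL KO lay below every Control library, and replicate 1 lay above all but one of them (log2 fold change -0.12, SE 0.086, edgeR adjusted p = 0.997). Pdk1, the kinase known as a HIF-1 target, had 22.9, 24.2, 27.1, 27.4 and 27.7 CPM in libraries labelled EC-TRAIL KO, against 28.8, 26.2, 31.1, 31.9 and 25.9 CPM in Control libraries. Replicates 1 and 2 labelled EC-TRAIL KO lay below the Control range, and the other 3 within it (log2 fold change -0.16, SE 0.086, edgeR adjusted p = 0.997). Pdk4, the kinase known to follow fasting, glucocorticoids and fatty acids, had 2.65, 3.12, 8.59, 17.0 and 16.0 CPM in libraries labelled EC-TRAIL KO, against 3.39, 4.18, 10.6, 13.8 and 8.49 CPM in Control libraries. Replicates 1 and 2 of each group were its lowest 2 libraries, at 4.18 CPM or less, where every other library had 8.49 CPM or more, so the group difference could not be measured closely (log2 fold change 0.23, SE 0.53). The length-scaled level of Pdk2 exceeded that of Pdk4 by 2.84 to 22.7 times among libraries labelled EC-TRAIL KO and by 3.96 to 16.8 times among Control libraries.

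**Figure D3:**
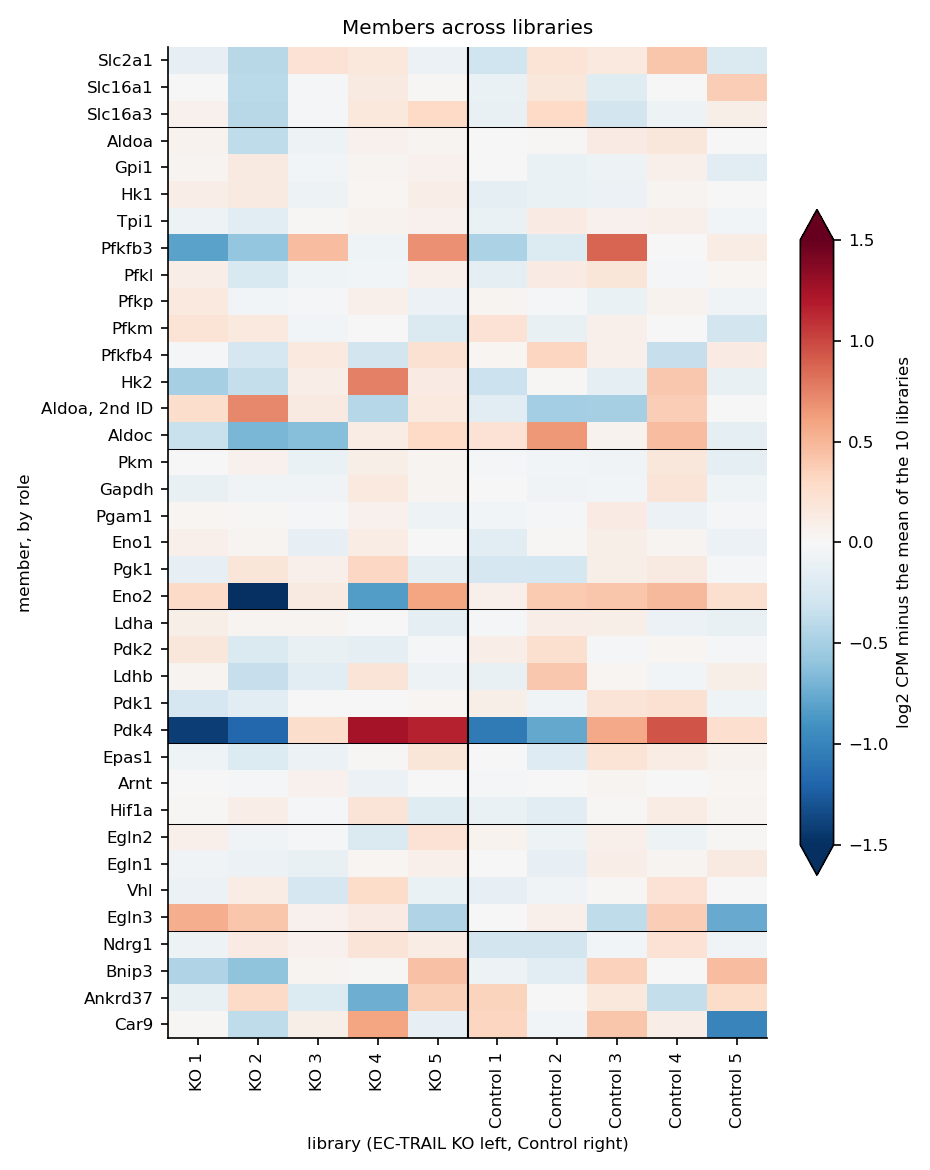
Log2 CPM of each gene in each library minus the mean of the 10 libraries, with genes by role down the page, EC-TRAIL KO replicates on the left and Control replicates on the right. The most extreme cell is the scarce Eno2 in EC-TRAIL KO replicate 2 at -1.79, Pdk4 and Pfkfb3 are low in replicates 1 and 2 of both groups, and rows such as Arnt, Pgam1 and Pkm are pale in all libraries.

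Of the HIF subunits, Epas1 dominated. Epas1, encoding HIF-2α (ENSMUSG00000024140, GRCm38 chr17:86753700-86833410, plus strand), had 8890, 8086, 8751, 9435 and 10610 CPM in libraries labelled EC-TRAIL KO, against 9278, 8154, 10790, 10080 and 9654 CPM in Control libraries. Replicate 2 was the lowest of each group, and the ranges nearly coincided (log2 fold change -0.067, SE 0.10). By length-scaled level it stood at rank 12 of 17977 genes, at 1660 ± 171 in libraries labelled EC-TRAIL KO and 1739 ± 178 in Control libraries (SD, n = 5 each). Hif1a, encoding HIF-1α, had 81.8, 86.9, 79.5, 92.7 and 71.6 CPM in libraries labelled EC-TRAIL KO, against 75.5, 72.0, 82.2, 87.9 and 83.1 CPM in Control libraries. Its highest and lowest values were both in libraries labelled EC-TRAIL KO (log2 fold change 0.04, SE 0.081).

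The length-scaled level of Epas1 exceeded that of Hif1a by 111 ± 20.9 times in libraries labelled EC-TRAIL KO and by 118 ± 7.41 times in Control libraries (SD, n = 5 each), with a range of 91.9 to 146 times over all libraries. Arnt, the shared beta subunit, had 111, 107, 115, 103 and 109.9 CPM in libraries labelled EC-TRAIL KO, against 108, 110.1, 113, 110.3 and 112 CPM in Control libraries. These values spanned only 1.12-fold over the 10 libraries (log2 fold change -0.019, SE 0.053). The length-scaled level of Arnt exceeded that of Hif1a by 1.505 ± 0.189 times in libraries labelled EC-TRAIL KO and by 1.56 ± 0.114 times in Control libraries (SD, n = 5 each). HIF activity is set mainly by protein stability, which these RNA levels do not measure.

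Among the genes of HIF degradation, Egln2, encoding the prolyl hydroxylase PHD1, had 65.4, 59.8, 61.2, 53.2 and 71.8 CPM in libraries labelled EC-TRAIL KO, against 63.9, 58.6, 65.3, 58.6 and 62.5 CPM in Control libraries. EC-TRAIL KO replicates 4 and 5 bounded all the other libraries from below and above (log2 fold change 0.01, SE 0.079). Egln1, encoding PHD2, the hydroxylase known as the main oxygen sensor for HIF-1α, had 58.4, 57.0, 55.9, 61.5 and 63.9 CPM in libraries labelled EC-TRAIL KO, against 59.9, 55.6, 64.6, 61.9 and 66.2 CPM in Control libraries. The ranges overlapped almost wholly (log2 fold change -0.054, SE 0.066). Egln3, encoding the hypoxia-induced PHD3, averaged 1.00 ± 0.264 CPM in libraries labelled EC-TRAIL KO and 0.825 ± 0.25 CPM in Control libraries (SD, n = 5 each). The length-scaled level of Egln1 exceeded that of Egln3 by 47.1 ± 16.7 times in libraries labelled EC-TRAIL KO and by 60.9 ± 23.9 times in Control libraries (SD, n = 5 each). Vhl, the substrate receptor of the ubiquitin ligase, averaged 14.4 ± 2.07 CPM in libraries labelled EC-TRAIL KO and 14.5 ± 1.36 CPM in Control libraries (SD, n = 5 each).

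The other HIF targets were 4 genes. Ndrg1, a stress-response gene induced by hypoxia, had 56.1, 64.2, 61.6, 67.7 and 63.7 CPM in libraries labelled EC-TRAIL KO, against 48.6, 48.9, 57.4, 68.7 and 57.0 CPM in Control libraries. Control replicates 1 and 2 lay below every library labelled EC-TRAIL KO, and Control replicate 4 lay above them all (log2 fold change 0.16, SE 0.096, edgeR adjusted p = 0.997). Bnip3, which marks mitochondria for autophagy, had 14.9, 13.3, 20.9, 20.5 and 27.7 CPM in libraries labelled EC-TRAIL KO, against 19.2, 18.1, 25.8, 20.1 and 28.04 CPM in Control libraries. Replicates 1 and 2 were the lowest and replicate 5 the highest of each group (log2 fold change -0.19, SE 0.19).

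Ankrd37, an ankyrin-repeat gene induced by HIF-1, averaged 8.89 ± 2.53 CPM in libraries labelled EC-TRAIL KO and 9.75 ± 1.76 CPM in Control libraries (SD, n = 5 each), and its lowest value in each group was in replicate 4. It overlaps Ufsp2 on the opposite strand, which had more reads. Car9, the cell-surface carbonic anhydrase used as a marker of hypoxic tissue, had 0.408, 0.299, 0.432, 0.631 and 0.365 CPM in libraries labelled EC-TRAIL KO, against 0.514, 0.391, 0.556, 0.434 and 0.178 CPM in Control libraries. With 6 to 27 counts per library, Car9 was the gene of this set with the lowest maximum count, and the antisense gene Gm12454 at its locus had more reads, so these counts are uncertain (log2 fold change 0.03, SE 0.32).

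Genes that share these pathways without being among the 36 were examined in 7 lists with 132 gene symbols in all. Ero1l and Ero1a among them name 1 gene, and 121 genes were tested. With edgeR's quasi-likelihood test 0 of 121 passed an adjusted p of 0.05, against 0.439% of all tested genes, and 2 had an unadjusted p under 0.05, against 5.13% of all. The log2 fold change was above 0 for 49 of them, where 47.4% of all tested genes lay above 0, and the median was -0.021, against -0.0085 over all tested genes. Both genes with an unadjusted p under 0.05 modify collagen and are hypoxia targets. Loxl2, a lysyl oxidase, had 33.7, 55.0, 38.6, 44.3 and 34.4 CPM in libraries labelled EC-TRAIL KO, against 30.1, 28.4, 31.1, 38.6 and 31.5 CPM in Control libraries (log2 fold change 0.37, SE 0.13, edgeR adjusted p = 0.716). Plod1, a lysyl hydroxylase, averaged 77.9 ± 5.07 CPM in libraries labelled EC-TRAIL KO and 69.4 ± 6.42 CPM in Control libraries (SD, n = 5 each, log2 fold change 0.17, edgeR adjusted p = 0.971). For both genes the groups overlapped.

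Within the other hypoxia targets, 18 of 44 tested genes lay above 0, with a median of -0.021. Vegfa, the vascular growth factor, averaged 1036 ± 170 CPM in libraries labelled EC-TRAIL KO and 1121 ± 26.8 CPM in Control libraries (SD, n = 5 each), with 743 CPM in EC-TRAIL KO replicate 2. The other HIF regulators had 4 of 16 above 0 and a median of -0.046. Their smallest p-values belonged to Elob, a subunit of the VHL ligase complex (log2 fold change 0.14, edgeR adjusted p = 0.997), and to Cited2, a competitor of HIF for its co-activator (log2 fold change -0.20, edgeR adjusted p = 0.997). The other glucose transporters had 4 of 10 above 0, with the smallest p-values in Slc2a6 at a log2 fold change of 0.68 (SE 0.37) and Slc2a4, the insulin-responsive GLUT4, at 0.58 (SE 0.38).

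The other glycolytic isozymes and carriers had 7 of 15 above 0. Bpgm, bisphosphoglycerate mutase, stood at a log2 fold change of -0.14 (SE 0.074), and Slc16a7, the carrier MCT2, at -0.24 (SE 0.16). In the glycogen and gluconeogenesis list 6 of 13 lay above 0, with Pgm1 at -0.12 and Pgm2, both phosphoglucomutases, at 0.08. In the pentose phosphate pathway, which makes NADPH and ribose, 5 of 10 lay above 0, with Pgls, the lactonase, at 0.14 and Rpe, the epimerase, at -0.16. In the list for pyruvate entry into mitochondria 5 of 13 lay above 0, with Pdk3 at -0.14 and Pdha1, a subunit of pyruvate dehydrogenase, at -0.081. That list also holds the glycerol-3-phosphate dehydrogenases Gpd1 and Gpd2, which were both above 0 and do not serve pyruvate entry. The edgeR adjusted p was 0.997 for each of the 8 genes given here with a log2 fold change.

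The spread between libraries of a group was wide for a few of the 36 genes, which were chosen for description after their values were seen. The within-group SD of log2 CPM had a median of 0.16 over the 37 rows, against 0.23 over all tested genes. These medians are not matched for level, so each gene was also ranked against the 1000 genes closest to it in mean level. In that ranking 4 of the 37 rows stood at or above percentile 90, where about 10% of all genes stand by the definition of a percentile. The count was thus near that share. Others stood near the middle, such as Hif1a at percentile 51.9, Epas1 at 52.2 and Vhl at 49.1. Pdk4 stood highest, with an SD of 1.08 at percentile 99.8 of genes of like level, and its values spanned 6.42-fold over the 10 libraries. Pfkfb3 followed with an SD of 0.58 at percentile 99.3 and a 3.197-fold span. Bnip3 stood at percentile 93.2 and Hk2 at percentile 91.0. At the other end, Arnt had an SD of 0.045 at percentile 0.9 of genes of like level, Pgam1 stood at percentile 6.6 and Hk1 at 11.8. Hk2 had 7.96, 8.79, 12.04, 18.99 and 12.3 CPM in libraries labelled EC-TRAIL KO, against 9.001, 11.4, 10.3, 14.9 and 10.4 CPM in Control libraries. Replicate 4 was its highest and replicate 1 its lowest in each group.

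**Figure D4:**
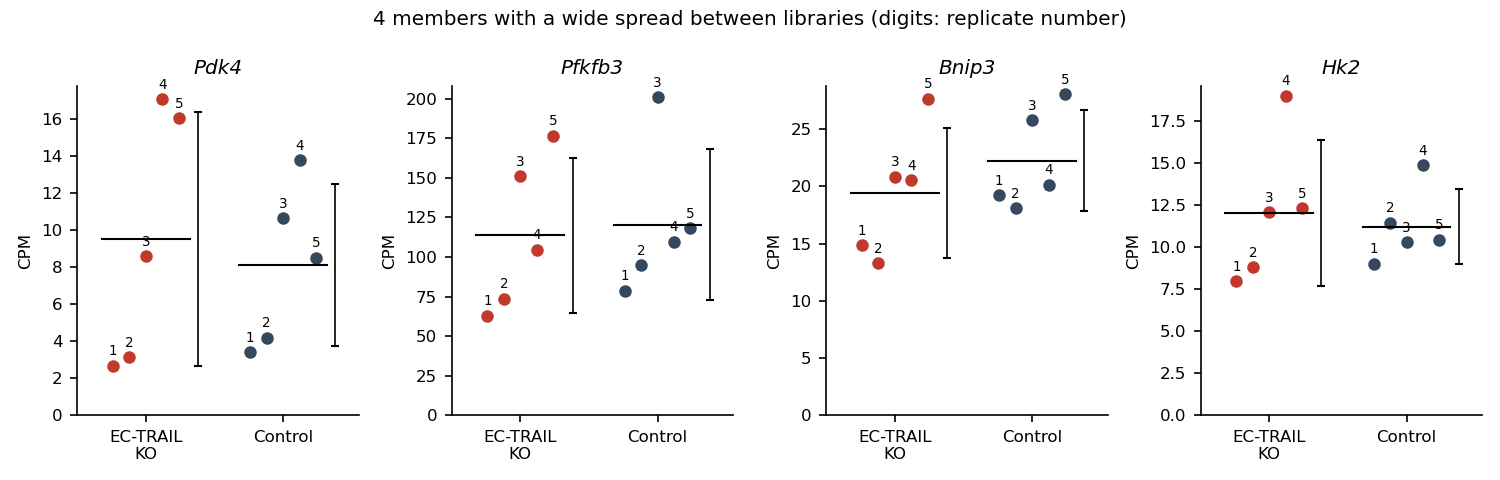
CPM of Pdk4, Pfkfb3, Bnip3 and Hk2 in each library, with EC-TRAIL KO left of Control, digits for the replicate number, horizontal lines for group means and bars for 1 SD either way (n = 5 each). Replicates 1 and 2 sit low in both groups for Pdk4 and Pfkfb3, and the group means lie close together beside the spread.

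The regions upstream of these 4 variable genes are shown because the genes had a wide spread for their level, and because the HIF-binding core motif is defined by its letters. Their courses across the libraries were not all alike, as the relations given further below show. The 250 bases before each RefSeq start are given 5′ to 3′ on the gene's strand (GRCm38.p6), with capitals for ACGTG or GCGTG on either strand, which read CACGT or CACGC where they lie on the opposite strand. All 4 genes lie on the minus strand. Pdk4 was read at chr6:5496279-5496528, Pfkfb3 at chr2:11502091-11502340 for its downstream start and chr2:11553930-11554179 for its upstream start, Bnip3 at chr7:138909507-138909756 and Hk2 at chr6:82774455-82774704.
Pdk4: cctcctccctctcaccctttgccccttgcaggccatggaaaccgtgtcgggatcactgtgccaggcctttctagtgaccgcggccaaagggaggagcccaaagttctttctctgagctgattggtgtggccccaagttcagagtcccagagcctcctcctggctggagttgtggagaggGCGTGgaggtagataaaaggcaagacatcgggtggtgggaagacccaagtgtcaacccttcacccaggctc
Pfkfb3, downstream start: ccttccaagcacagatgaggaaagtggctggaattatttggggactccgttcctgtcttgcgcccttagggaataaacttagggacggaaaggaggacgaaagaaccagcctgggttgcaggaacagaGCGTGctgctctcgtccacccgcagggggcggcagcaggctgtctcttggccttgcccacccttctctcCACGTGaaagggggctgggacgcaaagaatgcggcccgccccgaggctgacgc
Pfkfb3, upstream start: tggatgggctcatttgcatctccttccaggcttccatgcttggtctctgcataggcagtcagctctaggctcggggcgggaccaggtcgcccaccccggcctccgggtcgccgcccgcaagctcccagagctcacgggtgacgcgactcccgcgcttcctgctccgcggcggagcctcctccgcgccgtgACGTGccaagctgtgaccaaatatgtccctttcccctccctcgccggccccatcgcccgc
Bnip3: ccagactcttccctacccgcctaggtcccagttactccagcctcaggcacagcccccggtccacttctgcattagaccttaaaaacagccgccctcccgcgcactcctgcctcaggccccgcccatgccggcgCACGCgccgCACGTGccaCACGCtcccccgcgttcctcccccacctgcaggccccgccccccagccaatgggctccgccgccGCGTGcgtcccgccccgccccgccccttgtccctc
Hk2: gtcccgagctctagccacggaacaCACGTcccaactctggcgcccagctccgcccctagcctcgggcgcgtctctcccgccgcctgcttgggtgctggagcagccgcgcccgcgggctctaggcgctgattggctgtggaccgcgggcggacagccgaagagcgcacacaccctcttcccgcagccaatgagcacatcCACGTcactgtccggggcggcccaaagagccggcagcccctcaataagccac

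Pdk4 held 1 such match, 71 bases before its start. Each Pfkfb3 window held at least 1, and the downstream start also held the palindrome CACGTG, which contains ACGTG on both strands, as did Bnip3. Bnip3 held a cluster between 117 and 99 bases before its start and a further match at 35 bases. Hk2 held a match at 226 and another at 52 bases. Of the 36 symbols, 34 matched the RefSeq table, with 49 windows in all, and Epas1 and Ndrg1 were not among them. ACGTG on either strand was present in 44.9% of the 49 windows, against 16.6% of the 32851 windows of all genes. GCGTG was present in 53.1% of these windows, against 28.2% of all, and CACGTG in 14.3%, against 6.02% of all. The windows of the 36 genes were richer in G and C, with a median of 60.4% against 52.4% for all windows, and the part of base composition in these shares was not tested. Some windows of a gene overlap and share a match. Counted by gene, ACGTG was found for 19 of the 34 matched genes (55.9%), against 18.5% of 27025 genes. The 36 genes include HIF targets by choice, and a match of letters is not a binding site.

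Relations across the 10 libraries were computed for the 6 genes with the widest within-group spread and a mean of at least 5 CPM, which were Pdk4, Pfkfb3, Hk2, Ankrd37, Bnip3 and Slc2a1. Of 15 relations among them, 2 passed a Benjamini-Hochberg adjusted permutation p of 0.05 by both Pearson's r and Spearman's rho. Pdk4 and Hk2 were related with r = 0.825 (permutation p = 0.00178, adjusted 0.0263) and rho = 0.903 (permutation p = 0.00076, adjusted 0.0114, n = 10). Pfkfb3 and Bnip3 were related with r = 0.828 (permutation p = 0.0035, adjusted 0.0263) and rho = 0.879 (permutation p = 0.00176, adjusted 0.0132, n = 10). Without the 2 libraries farthest from the median of the first-named gene, r was 0.712 for Pdk4 with Hk2 and 0.77 for Pfkfb3 with Bnip3. After each group was centred on its own mean, r was 0.826 and 0.844 in the same order, so both relations were present within the groups. Hk2 and Pfkfb3 were only loosely related, with r = 0.379 (permutation p = 0.281, adjusted 0.383) and rho = 0.515 (permutation p = 0.132, adjusted 0.248, n = 10). By Pearson's r alone, Pdk4 passed with Pfkfb3 (r = 0.761) and with Bnip3 (r = 0.74), and Hk2 with Ankrd37 (r = -0.73). Their adjusted permutation p was 0.0486 each by r, and 0.0712, 0.109 and 0.285 by rho in the same order.

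The same 6 genes were set against the mean log2 CPM of the 7 pathway lists and 17 marker lists, and 3 of these 144 relations passed by both measures. Pfkfb3 ran with the other hypoxia targets, with r = 0.952 (permutation p = 3e-05, adjusted 0.00216) and rho = 0.927 (permutation p = 0.00037, adjusted 0.0245, n = 10). Leaving out any 1 gene of that list gave an r of 0.916 or more. Pdk4 ran with the other HIF regulators, with r = 0.91 (permutation p = 0.00043, adjusted 0.0187) and rho = 0.903 (permutation p = 0.00074, adjusted 0.0266, n = 10). This relation rests on a single gene of the list, since r was 0.509 without Hif3a, a HIF alpha subunit gene that itself spanned 0.729 to 11.9 CPM in libraries labelled EC-TRAIL KO and 1.11 to 5.21 CPM in Control libraries. Hk2 ran against the aerocyte markers, genes of the large alveolar capillary cells, with r = -0.979 (permutation p = 1e-05, the smallest the permutations can give, adjusted 0.00144) and rho = -0.976 (permutation p = 5e-05, adjusted 0.0072, n = 10). Leaving out any 1 aerocyte marker gave an r of -0.933 or stronger. Without the 2 libraries farthest from the median of the list mean, r was 0.928 for Pfkfb3, 0.87 for Pdk4 and -0.958 for Hk2.

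Library numbers 1 and 2 stood apart from numbers 3 to 5 in several of these genes, and the labels name no batch behind the numbers. The permutations treat the 10 libraries as exchangeable, so the p-values above are too small if libraries of 1 number share a source. The 6 libraries numbered 3 to 5 were set apart after these values were seen, and no test was run on them. Within them r was 0.856 for Pfkfb3 with the other hypoxia targets and 0.772 for Pdk4 with the other HIF regulators. For Hk2 with the aerocyte markers it was -0.979. Other relations of Pdk4 with the lists passed by 1 measure only. With the other hypoxia targets r was 0.911 (permutation p = 0.00052, adjusted 0.0187) and rho was 0.855 (permutation p = 0.00273, adjusted 0.0502, n = 10). With the aerocyte markers r was -0.796 (permutation p = 0.00341, adjusted 0.0702) and rho was -0.915 (permutation p = 0.00051, adjusted 0.0245, n = 10). With leukocyte markers r was -0.778 (permutation p = 0.00759, adjusted 0.0994) and rho was -0.891 (permutation p = 0.00101, adjusted 0.0291, n = 10). Pdk4 also had an r of 0.853 with markers of mural cells, the smooth muscle cells and pericytes around vessels (permutation p = 0.00096, adjusted 0.0277), although its rho of 0.855 missed the threshold after adjustment (permutation p = 0.00279, adjusted 0.0502, n = 10). The summed level of the 9 mural markers ran from 382.5 to 648 CPM in libraries labelled EC-TRAIL KO and from 506 to 682 CPM in Control libraries. The 7 aerocyte markers summed to 1917 to 2498 CPM in libraries labelled EC-TRAIL KO and to 1938 to 2289 CPM in Control libraries, and their mean log2 CPM was lowest in replicate 4 of each group. The part of cell composition in these relations was not tested. Apln stands in both the aerocyte list and the list of other hypoxia targets.

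**Figure D5:**
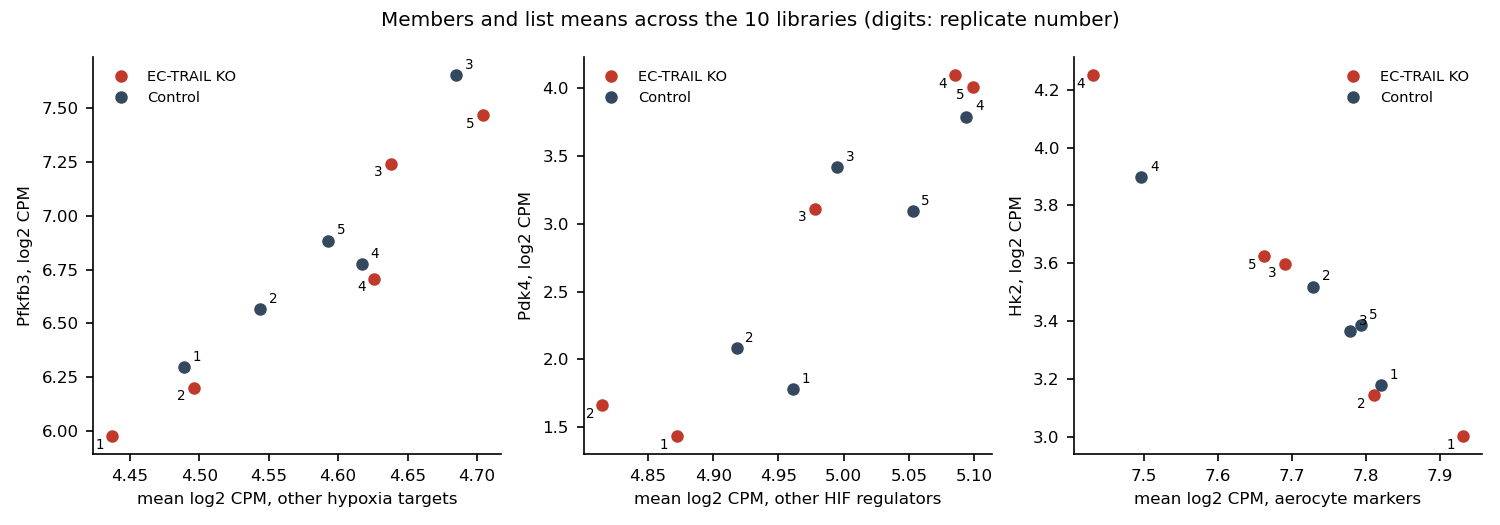
Log2 CPM of Pfkfb3, Pdk4 and Hk2 (vertical axes) against the mean log2 CPM of the other hypoxia targets, the other HIF regulators and the aerocyte markers (horizontal axes) in the 10 libraries, with EC-TRAIL KO in red, Control in dark blue and digits for the replicate number. Pfkfb3 and Pdk4 climb with their lists and Hk2 descends with the aerocyte markers, with both groups mixed along each course.

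Of the other hypoxia targets, 4 with a wide spread between libraries were picked out once their values were known. The within-group SD of log2 CPM was 1.37 for Angptl4 and 0.60 for Lox, against 0.58 for Pfkfb3. It was lower than that for Hilpda at 0.47 and Ddit4 at 0.40. The pick was not by rank, since genes such as Adm and Mt2, at 0.53 each, were left out. Angptl4, which inhibits lipoprotein lipase, had 3.62, 7.53, 26.3, 21.8 and 65.0 CPM in libraries labelled EC-TRAIL KO, against 5.71, 13.8, 34.1, 22.3 and 32.5 CPM in Control libraries. Lox, a lysyl oxidase, had 22.5, 23.2, 41.3, 53.8 and 71.8 CPM in libraries labelled EC-TRAIL KO, against 26.3, 29.6, 34.2, 46.0 and 50.6 CPM in Control libraries. Ddit4, an inhibitor of mTORC1 signalling, had 44.8, 46.2, 74.6, 73.7 and 94.9 CPM in libraries labelled EC-TRAIL KO, against 55.6, 64.5, 94.2, 82.1 and 75.5 CPM in Control libraries. In all 3, replicates 1 and 2 were the lowest 2 of each group. Mt2 shared that course, whereas Adm had its lowest Control value in replicate 5 (9.32 CPM). Hilpda, which promotes lipid storage, followed another course, with 105, 92.8, 92.7, 51.8 and 108 CPM in libraries labelled EC-TRAIL KO, against 119.9, 101, 127, 52.8 and 99.7 CPM in Control libraries. Its lowest value in each group was in replicate 4, where Hk2 was highest.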

How the data were processed

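RNA of sorted lung endothelial cells was measured in 10 libraries, 5 labelled EC-TRAIL KO and 5 Control, grouped by the sample titles. Per the labels' protocols, TRIzol was used for RNA isolation and a stranded kit for libraries of poly-adenylated RNA. Per the submitters' processing notes, STAR 2.7.1a and RSEM 1.2.28 were used with the GRCm38 build. The deposited values are RSEM's expected counts for each gene, which the authors left unnormalized, and 81.2% of them are whole numbers. Their annotation release, filters and strand setting were not given in any source used here. An expected count divides reads between near-identical genes by a model. All 5 libraries with the transgene were used.

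Rounded expected counts went into edgeR 4.0.16 with limma 3.58.1 under R 4.3.3. The filterByExpr filter at a minimum count of 10 left 17997 genes and removed 37388. Libraries were scaled by TMM, groups were compared with the quasi-likelihood F-test with group as the only term, with Benjamini-Hochberg adjustment over every tested gene and a threshold of 0.05. The standard error is the log2 fold change over the square root of F, and the 95% interval uses the fit's degrees of freedom. CPM uses TMM library sizes. The length-scaled level divides CPM by the kilobases of exon in the basic GENCODE M21 annotation, in which 55144 identifiers matched without their version. Log2 CPM for spreads and list means used a prior count of 2. Correlations used 100000 permutations. The test was also run on simulated counts, with means and dispersions taken from these libraries. No pair of libraries of a group came below a chi-square of 25.6 per degree of freedom, so none looked like a repeat deposit. Upstream windows of 250 bases came from RefSeq (GRCm38.p6).

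The genes, the lists and their grouping were chosen with earlier results of these data known. Values of all libraries are given for the 8 genes with the smallest p, the 2 with the highest length-scaled level in each role and any gene with a library far from its group, and 2 genes of each other pathway list are named by smallest p. Values of Pdk4, Pfkfb3, Hk2, Hif1a, Eno2, Car9, Vegfa, Hif3a, Angptl4, Lox, Ddit4 and Hilpda are given by choice after they were seen. The alternatives were RLE factors, library size only, DESeq2 1.42.0, limma-voom, a mean CPM of at least 1 as the filter, no filter, a block for the replicate number, the alveolar markers as a covariate and each library left out in turn.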

Additional observations from a re-analysis of the deposited data

Results flagged for a closer look

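Gapdh stood at 87.6 CPM in Control replicate 4, while the nearest of the other Control libraries was at 76.4 CPM. The gap made up 0.795 of the range of the 5 Control libraries, above Dixon's critical value of 0.71 for a group of 5. It was 1 of 74 groups of values tested over the 37 rows, and chance alone marks about 1 in 20. Replicate 4 labelled EC-TRAIL KO was also the highest of its group for Gapdh, at 84.9 CPM. Without Control replicate 4 the log2 fold change of Gapdh was 0.04, against -0.012 with all libraries, and it was not called in either.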

How the results depend on the processing

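In each of the 18 alternatives 0 of the glycolysis and hypoxia response genes and 0 genes of the other pathway lists were called in either direction. All 37 rows were tested in each, except that 33 were tested with a mean CPM of at least 1 as the filter. Of 662 log2 fold changes refitted under the alternatives, 35 turned their sign, in 16 genes, and 0 of these were called. The cause was not tested for the changes below. The count over all tested genes (79 higher, 0 lower) became 2 higher with library size only and with limma-voom, 208 higher and 3 lower with DESeq2, 141 higher and 2 lower with no low-count filter, and 1 higher with the alveolar covariate. With 1 library left out it ran from 2 to 154 higher and from 0 to 1 lower. With the replicate block it became 146 higher and 3 lower, and Bnip3 and Ndrg1 had an unadjusted p under 0.05 there (lowest edgeR adjusted p = 0.483). Genes with an unadjusted p under 0.05 were 1581 with the block, against 923 without it. The labels do not say that a number marks a shared animal, litter or day. Deviations of same-numbered libraries from their group means correlated at 0.227, 0.068, 0.21, 0.433 and 0.114 for numbers 1 to 5, and 4 of the 5 libraries labelled EC-TRAIL KO correlated best with the Control library of their own number. Number 2 was the exception. Whether a number marks something shared was not tested. With no low-count filter Pgam1 was at -0.0032 and Egln2 at -0.00058. With the alveolar covariate Slc16a1 was at 0.00018, Pfkm at -0.022 and Pfkfb4 at 0.016. With 1 library left out the log2 fold change ran from -0.040 to 0.13 for Slc16a3, -0.12 to 0.23 for Hk2, -0.0066 to 0.052 for Pfkp, -0.028 to 0.095 for Pfkm, -0.30 to 0.18 for Pfkfb3 and -0.052 to 0.036 for Gapdh. It ran from -0.011 to 0.043 for Pgam1, -0.012 to 0.050 for Ldha, -0.089 to 0.51 for Pdk4, -0.0031 to 0.089 for Hif1a and -0.039 to 0.00081 for Arnt. It ran from -0.045 to 0.063 for Egln2, -0.087 to 0.046 for Vhl and -0.15 to 0.15 for Car9. Depth limits the second Aldoa identifier, Eno2, Egln3 and Car9, with means under 1 CPM.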
